A study of Mus musculus with 6 samples.

Results

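The 10 genes described here code for the 2 classes of ring-shaped folding chambers of the mouse cell: the 8 subunits of the cytosolic chaperonin CCT (Tcp1, Cct2, Cct3, Cct4, Cct5, Cct6a, Cct7 and Cct8) and the mitochondrial pair Hspd1 and Hspe1. They were chosen by gene symbol, and all 10 were present among the 16095 genes of the deposited table. RNA was measured by sequencing in 6 libraries of kidney epithelial cells, 3 labelled CONTROL and 3 labelled Terf1FLOX. CONTROL mice were Trf1+/+ KFP+/t Cre+/t and Terf1FLOX mice were Trf1lox/lox KFP+/t Cre+/t (Trf1 flox/flox in the sample labels). Both groups therefore carried the KFP reporter and the KspCadherin-CreERT2 recombinase, which is driven by a promoter of kidney tubule epithelium. Both groups also received tamoxifen, 3 injections a week for 8 weeks, starting at 6 to 8 weeks of age in males and females. The cells taken for RNA were positive for EpCAM, an epithelial surface protein, and for the KFP reporter. The labels do not tie a library to 1 mouse or to several, nor to a sex; n is therefore the number of libraries, and p-values measure only the spread between libraries.

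CCT, also called TRiC, is a double ring in which each of the 8 subunits takes a fixed place. It closes around newly made proteins and uses ATP to fold them; actins and tubulins are its best known clients. Hspd1 codes for Hsp60, the barrel that folds proteins imported into the mitochondrial matrix, and Hspe1 codes for Hsp10, the lid that closes it. Cells of the thick ascending limb and distal tubule are rich in mitochondria.

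The libraries held 13582140 to 17680986 reads over the table's genes, and a member had between 245 and 9427 reads in a library. Terf1, the targeted gene, whose product TRF1 protects telomeres, was at 559.8 ± 92.7 normalized counts in CONTROL and 37.3 ± 21.4 in Terf1FLOX libraries (SD, n = 3 each), without overlap. The normalized count is the number of reads scaled for library size and not divided by gene length. The sorted cells carried markers of the distal nephron: the summed level of 6 thick ascending limb markers was 161960 to 206066 in CONTROL and 133917 to 141500 in Terf1FLOX libraries, without overlap. Of 6 endothelial and 4 podocyte markers 0 were among the table's genes, and of 7 fibroblast and pericyte markers there was 1, which summed to at most 15.2. Of 10 macrophage and monocyte markers 4 were listed, at sums of 137.3 to 244.6 and 140.6 to 293.7. Marker sums of other tubule cells overlapped between groups: distal convoluted and connecting tubule 67945 to 138287 in CONTROL and 72235 to 127389 in Terf1FLOX, intercalated cell 8811 to 20196 and 6010 to 11420, principal cell 920.2 to 2253 and 255.5 to 942.2, and proximal tubule 716.8 to 1824 and 751.6 to 3887. Erythroid markers summed to 190.2 to 746.0 and 150.9 to 553.6, also with overlap. Of 7 lymphocyte markers 2 were listed, at sums of 4.74 to 17.2 in CONTROL and 19.6 to 29.3 in Terf1FLOX libraries. Mitochondrially encoded genes made up 10.3% to 13.04% of the normalized counts in CONTROL and 16.2% to 20.6% in Terf1FLOX libraries. The part of these differences in the results below was not tested.

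The comparison of Terf1FLOX with CONTROL asks how these genes stand in tubule cells after loss of TRF1. Of the 10 genes, 9 had a lower and 1 a higher mean log2 level in Terf1FLOX libraries. Hspd1 was 4.08-fold lower, Cct3 was 3.47-fold lower and Cct7 was 2.43-fold lower, while Hspe1 was 1.52-fold higher. After correction for transcript GC content and length, described further on, the log2 fold change of Cct7 went from −1.28 to −0.52. None of the 10 was called by limma at a p adjusted over all 14822 tested genes below 0.05; the adjusted p ran from 0.115 for Cct3 to 0.775 for Cct6a. Over all genes limma called 0 (0%) and edgeR called 0 (0%), with 2095 (14.1%) and 1993 (13.4%) respectively at an unadjusted p below 0.05. DESeq2, run on the recovered reads, called 772. Fold changes are those of log2(normalized count + 1), Terf1FLOX minus CONTROL, and ± after one is its standard error.

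At an unadjusted limma p below 0.05, 3 of the 10 members were lower, against a background of 8.43% of all genes tested, and 1 was higher, against 5.7%. In 4 members every Terf1FLOX library was below every CONTROL library, against 10.8% of all genes tested, and in 1 member every one was above, against 10.3%. The 4 were Cct2, Cct3, Cct7 and Hspd1, and the 1 was Hspe1. DESeq2 called Cct3, Cct7 and Hspd1 (DESeq2 adjusted p 0.000676, 0.022 and 0.000163). Its calls over all genes were 3% lower and 2.21% higher, with 15.9% at an unadjusted p below 0.05. Among genes with a mean of at least 50, limma called 0.855% lower, Hspd1 among them, and 0.372% higher, with 16.7% at an unadjusted p below 0.05. Under 2 other scalings limma called 0 of the 10: equal library totals called 0.297% of genes lower and 0.00675% higher (14.9% at an unadjusted p below 0.05), and quantile normalization 0.054% lower and 0% higher (13.9%).

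**Figure D1:**
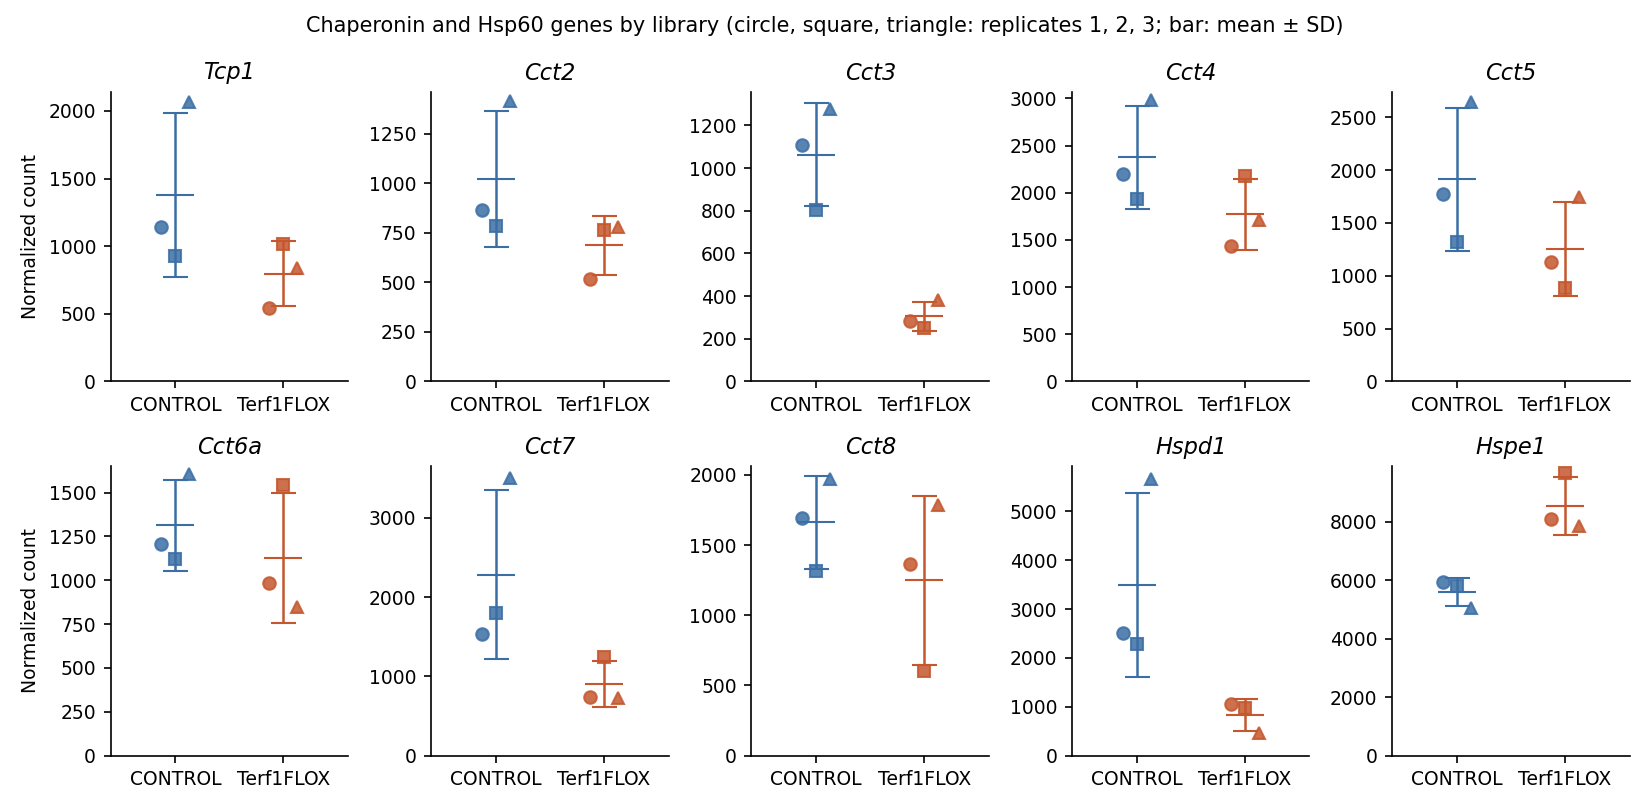
Normalized count (linear axis from 0) of each of the 10 genes in 3 CONTROL (blue) and 3 Terf1FLOX (orange) libraries; symbols are replicates 1 to 3, the horizontal bar is the mean and the whiskers are the SD. Cct2 (785.4 against 781.3 at the closest), Cct3, Cct7 and Hspd1 do not overlap between groups and are lower in Terf1FLOX libraries, Hspe1 is higher without overlap, and CONTROL replicate 3 is the highest CONTROL library for 9 of the 10 genes.

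The CCT subunits are taken first. The 8 genes lie on 8 different chromosomes, and all 8 had a log2 fold change below 0, from −1.79 to −0.25, with a median of −0.58. The median over all genes tested was −0.08, and 52.8% of all genes were below 0. The summed normalized count of the 8 subunits was 11528, 10006 and 17481 in CONTROL and 6990, 8480 and 8826 in Terf1FLOX libraries. The CONTROL libraries were all above the Terf1FLOX libraries, but CONTROL replicate 3 lay far above the rest. Without CONTROL replicate 3 the median log2 fold change of the subunits was −0.37. Because these are bulk samples, fewer cells of a type and less RNA per cell cannot be told apart.

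Cct3, the gamma subunit, had the largest fold change of the CCT genes. Its gene is on chromosome 3. It was at 1110, 801.6 and 1276 normalized counts in CONTROL and at 281.7, 251.4 and 382.5 in Terf1FLOX libraries. All 3 Terf1FLOX libraries lay far below the CONTROL libraries. The group means were 1063 ± 241.0 and 305.2 ± 68.6 (SD, n = 3 each), and the log2 fold change was −1.79 ± 0.37 (limma unadjusted p = 0.000996, adjusted p = 0.115). Leaving out any 1 library gave values from −1.98 to −1.65.

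Cct7, the eta subunit, is on chromosome 6 and was next. It was at 1537, 1803 and 3507 in CONTROL and at 742.9, 1242 and 733.7 in Terf1FLOX libraries. The groups did not overlap, and CONTROL replicate 3 stood well above the other CONTROL libraries. The log2 fold change was −1.28 ± 0.39 (limma unadjusted p = 0.00949, adjusted p = 0.207), or −0.92 without CONTROL replicate 3. After correction for GC content and length it was −0.52 ± 0.41 (limma unadjusted p = 0.24).

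The stretch of genome before the starts of Cct3 and Cct7 is shown because a gene read in the other direction starts nearby, whose values are given further on. The Cct3 stretch lies between the starts of Cct3 and Tsacc, and the Cct7 stretch lies inside the gene model of Pradc1, which overlaps that of Cct7. Both are from the RefSeq promoter windows on build GRCm38.p6, plus strand, limited to bases that no annotated exon covers. Capitals mark a CCAAT box (CCAAT or ATTGG) or a GC box (GGGCGG or CCGCCC).
Cct3, chr3:88297000-88297115: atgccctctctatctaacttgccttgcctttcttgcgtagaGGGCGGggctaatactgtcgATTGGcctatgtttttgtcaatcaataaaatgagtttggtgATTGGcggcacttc
Cct7, chr6:85451284-85451504: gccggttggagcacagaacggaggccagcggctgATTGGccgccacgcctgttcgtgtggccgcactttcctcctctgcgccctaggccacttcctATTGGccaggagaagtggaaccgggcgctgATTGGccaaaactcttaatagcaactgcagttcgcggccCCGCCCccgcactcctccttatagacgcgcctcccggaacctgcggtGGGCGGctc
Windows of 300 bases, 12 in all, were given for 9 of the 10 members. A GC box was found in 11 of the 12, with all 9 genes among them, and in 35.7% of all 32851 windows. A CCAAT box was found in 5 of the 12 (Tcp1, Cct3, Cct6a, Cct7 and Hspd1), and in 37.4% of all windows. A match of letters is a description and not a binding site.

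Tcp1, the alpha subunit and the gene after which the family is named, is on chromosome 17. It was at 1140, 924.5 and 2064 in CONTROL and at 540.6, 1013 and 840.0 in Terf1FLOX libraries. The groups overlapped, since Terf1FLOX replicate 2 was above CONTROL replicate 2. The log2 fold change was −0.75 ± 0.40 (limma unadjusted p = 0.0959), and −0.41 without CONTROL replicate 3.

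Cct2, the beta subunit, on chromosome 10, was at 865.6, 785.4 and 1417 in CONTROL and at 516.7, 766.6 and 781.3 in Terf1FLOX libraries. The groups did not overlap, but the lowest CONTROL and the highest Terf1FLOX library were nearly equal. The log2 fold change was −0.55 ± 0.36 (limma unadjusted p = 0.166).

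Cct4, the delta subunit, on chromosome 11, was at 2202, 1939 and 2989 in CONTROL and at 1434, 2176 and 1709 in Terf1FLOX libraries. Cct5, the epsilon subunit, on chromosome 15, was at 1771, 1315 and 2648 in CONTROL and at 1130, 886.7 and 1749 in Terf1FLOX libraries. In both genes 1 Terf1FLOX library lay within the range of the CONTROL libraries, replicate 2 for Cct4 and replicate 3 for Cct5. Their log2 fold changes were −0.42 ± 0.28 and −0.60 ± 0.37.

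Cct6a, the zeta subunit, on chromosome 5, was at 1207, 1123 and 1607 in CONTROL and at 982.2, 1546 and 848.1 in Terf1FLOX libraries. Cct8, the theta subunit, on chromosome 16, was at 1695, 1314 and 1973 in CONTROL and at 1362, 599.3 and 1782 in Terf1FLOX libraries. Both genes overlapped between groups. Terf1FLOX replicate 2 had the highest Cct6a and the lowest Cct8 of its group. Their log2 fold changes were −0.25 ± 0.33 and −0.53 ± 0.42. Without Terf1FLOX replicate 2 they were −0.51 and −0.07, which turned their order.

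For the 6 subunits other than Cct3 and Cct7 the 95% interval of the log2 fold change from limma included 0. It ran from −1.66 to 0.16 for Tcp1, from −1.44 to 0.23 for Cct5 and from −1.48 to 0.42 for Cct8, the widest of the 6.

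Within the complex, the make-up of the summed subunit counts was described for each library. Cct3 gave 9.63%, 8.01% and 7.30% of the sum in CONTROL and 4.03%, 2.97% and 4.33% in Terf1FLOX libraries. It was the only one of the 8 subunits whose shares did not overlap between groups; this difference was not tested. Set against the mean log2 profile of the 8 subunits, Cct3 was lower by a difference of −1.02 and Cct4 higher by 0.35. Both were without overlap between groups, and the other 6 overlapped. That mean includes Cct3, so a low Cct3 raises the other subunits against it. Of all genes tested, 10.8% were lower and 10.3% higher without overlap, counted on normalized counts and not on these measures. Cct4, the largest contributor on average, gave 17.1% to 19.4% in CONTROL and 19.4% to 25.7% in Terf1FLOX libraries, with overlap. Cct8 gave 11.3% to 14.7% in CONTROL libraries and ranged from 7.07% to 20.2% among Terf1FLOX libraries.

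**Figure D2:**
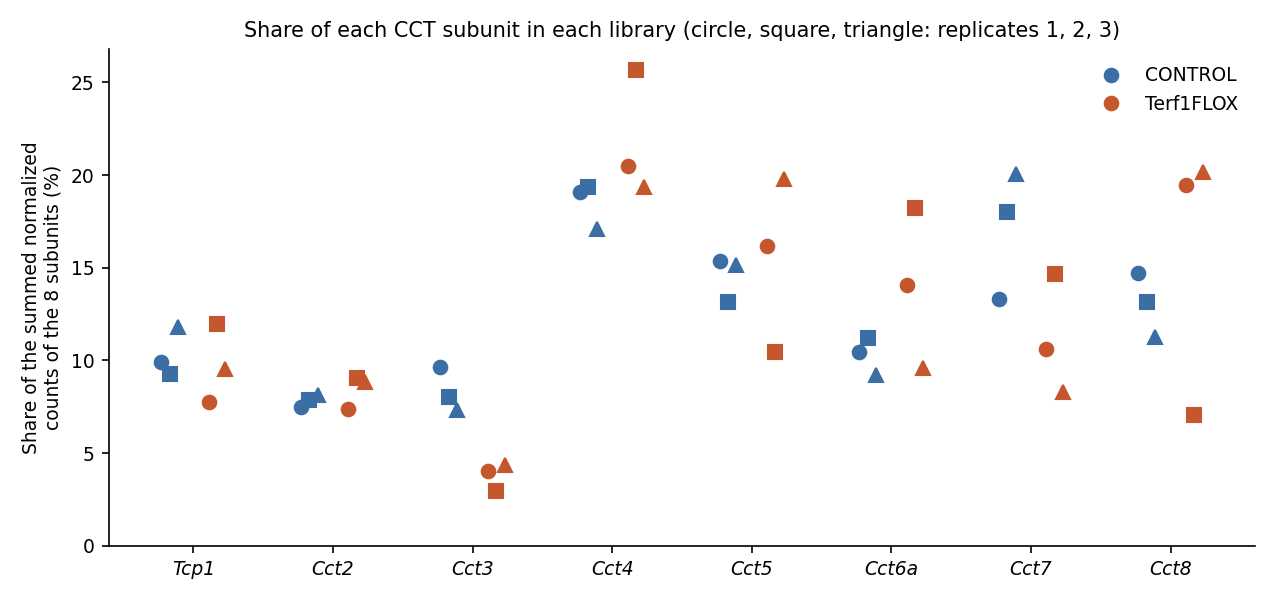
Share of each CCT subunit in the summed normalized counts of the 8 subunits (percent, axis from 0) in each library; blue is CONTROL, orange is Terf1FLOX, and symbols are replicates 1 to 3. The Cct3 shares of the Terf1FLOX libraries, 2.97% to 4.33%, lie below those of the CONTROL libraries, 7.30% to 9.63%, and the other 7 subunits overlap.

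Levels of different genes were set side by side per kilobase of the longest annotated protein-coding transcript. On that scale Hspe1 was highest in both groups, at 7234 ± 621 normalized counts per kilobase in CONTROL and 11037 ± 1275 in Terf1FLOX libraries (SD, n = 3 each). Hspd1 was second in CONTROL, at 1440 ± 779, within its SD of the next gene, and eighth of the 10 in Terf1FLOX libraries, at 344.4 ± 135.0. In CONTROL libraries Cct5 (1031 ± 365), Cct4 (956.7 ± 219.9) and Cct7 (935.1 ± 437.9) came next and lay within each other's SD. The subunits Cct8 (693.7 ± 138.1), Tcp1 (562.7 ± 247.5), Cct3 (537.5 ± 121.9), Cct6a (534.8 ± 105.5) and Cct2 (522.0 ± 175.5) followed, and the last 4 were within each other's SD. In Terf1FLOX libraries Cct3 was lowest, at 154.4 ± 34.7, and the next lowest was Tcp1, at 326.2 ± 97.7. Cct4 (713.7 ± 151.0), Cct5 (677.4 ± 239.8), Cct8 (521.2 ± 250.5), Cct6a (458.6 ± 150.8), Cct7 (371.2 ± 119.1) and Cct2 (351.3 ± 75.9) stood between Hspe1 and Hspd1 in that order, each within the SD of the one before it.

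The mitochondrial pair differed in direction. Hspd1, on chromosome 1, was at 2510, 2291 and 5665 in CONTROL and at 1061, 983.2 and 459.5 in Terf1FLOX libraries. CONTROL replicate 3 stood far above the other CONTROL libraries, and all 3 Terf1FLOX libraries lay far below them. The means were 3489 ± 1888 and 834.4 ± 327.0 (SD, n = 3 each) and the log2 fold change was −2.03 ± 0.45 (limma unadjusted p = 0.00163, adjusted p = 0.128). Without CONTROL replicate 3 it was −1.61. Among genes with a mean of at least 50 the limma adjusted p was 0.0418, past the threshold.

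Hspe1, its neighbour on chromosome 1, was at 5949, 5798 and 5051 in CONTROL and at 8087, 9675 and 7866 in Terf1FLOX libraries. Every Terf1FLOX library was above every CONTROL library, and CONTROL replicate 3, highest for Hspd1, was lowest for Hspe1. The means were 5599 ± 480 and 8543 ± 986 (SD, n = 3 each), with a log2 fold change of 0.61 ± 0.18 (limma unadjusted p = 0.0082, adjusted p = 0.198). The mouse annotation lists 6 pseudogenes named for Hspe1 and 5 named for Hspd1. The table lists 3 copies of Hspe1 as genes of their own, none above 35.9 normalized counts. The labels do not say how reads shared with copies were assigned, and the levels of both genes are uncertain to that extent.

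The ratio of Hspd1 to Hspe1 normalized counts was 0.422, 0.395 and 1.12 in CONTROL and 0.131, 0.102 and 0.0584 in Terf1FLOX libraries. The log2 ratio averaged −0.81 ± 0.84 and −3.44 ± 0.60 (SD, n = 3 each), a difference of −2.63 with no overlap; this difference was not tested. A common scale factor cancels in this ratio; with quantile normalization, which has none, the difference was −2.54. It was −2.15 without CONTROL replicate 3.

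**Figure D3:**
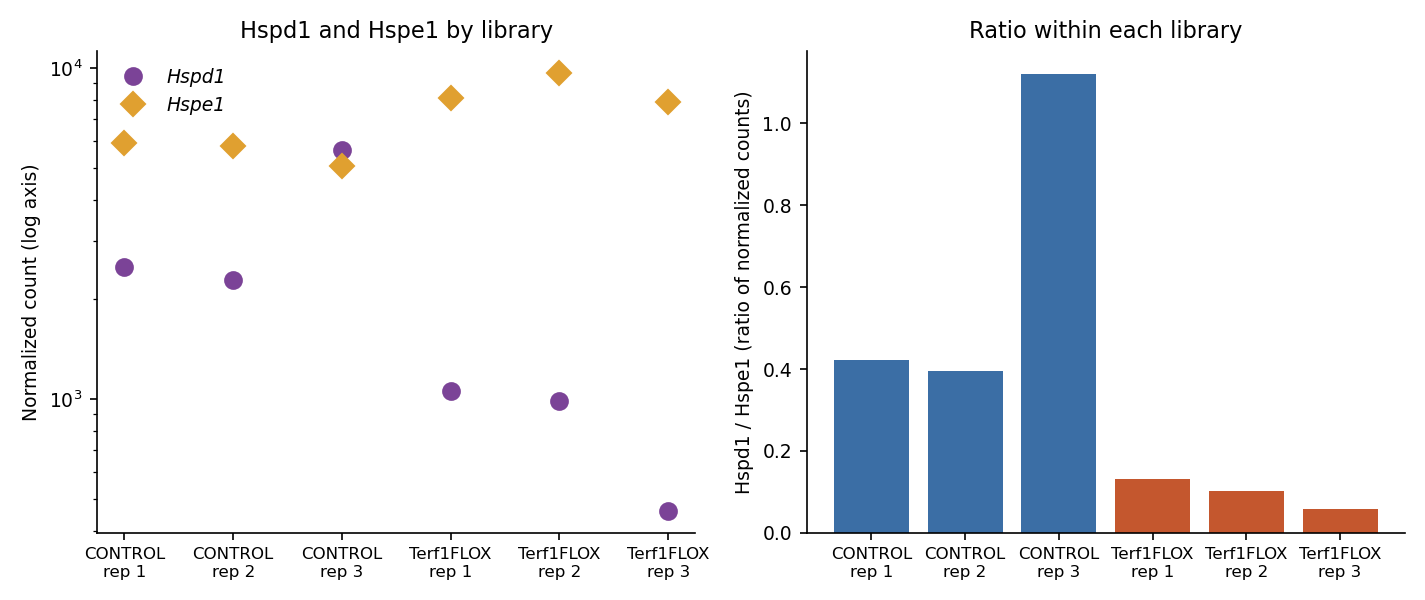
Left, normalized count (log axis) of Hspd1 (purple circles) and Hspe1 (amber diamonds) in each library; right, their ratio (linear axis from 0), blue for CONTROL and orange for Terf1FLOX. The ratio is 0.395 to 1.12 in CONTROL and 0.0584 to 0.131 in Terf1FLOX libraries, with CONTROL replicate 3 highest.

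Hspd1 and Hspe1 are known to be transcribed in opposite directions from 1 shared promoter region. In the annotation their 5′ ends overlap by 112 bases, so without strand their reads there cannot be told apart, and the labels do not say whether strand was used in counting. The stretch below is shown because it lies between the RefSeq start of Hspe1 and 1 of the 2 RefSeq starts of Hspd1, with the capitals at positions −89 to −72 from the start of Hspe1. It holds a run of inverted half-sites of the heat shock element, the sequence that heat shock factors recognise. Capitals mark 3 overlapping matches, 2 of TTCNNGAA and 1 of GAANNTTC, on build GRCm38.p6 and on the strand of Hspe1 (plus).
Hspd1 and Hspe1, chr1:55088053-55088082: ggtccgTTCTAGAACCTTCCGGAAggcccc
GAANNTTC was found in 7.86% and TTCNNGAA in 8.52% of all 32851 windows. Both letter patterns read the same on the 2 strands. Of the CCT genes, Cct2 held the former and Cct5 and Cct6a the latter. The composite TGATGCAAT, a form of the site shared by CHOP and ATF4, was in 0 of the 12 windows of members and in 0.192% of all windows, which says only that these letters are not in these windows.

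Head-to-head starts were looked up for these genes only, and their share over all annotated genes was not counted. In the GENCODE annotation on GRCm38, 8 of the 10 members have a gene on the other strand that starts within 1000 bases: Tcp1 with Mrpl18, Cct3 with Tsacc, Cct5 with Atpsckmt, Cct6a with Psph, Cct7 with Pradc1, Cct8 with the non-coding B130034C11Rik, and Hspd1 and Hspe1 with each other. Cct2 and Cct4 have none. Pradc1 was lower like Cct7, at 349.2, 270.7 and 476.0 in CONTROL and 179.5, 211.4 and 191.3 in Terf1FLOX libraries. Its log2 fold change was −0.87 ± 0.45 (limma unadjusted p = 0.0849, adjusted p = 0.422). The gene models of Cct7 and Pradc1 overlap by 457 bases, those of Tcp1 and Mrpl18 by 645 and those of Cct6a and Psph by 452. Some reads of the 2 genes in each of these pairs may therefore not be told apart. Tsacc, which starts 117 bases from Cct3, was at 180.3, 201.1 and 124.7 in CONTROL and 213.2, 120.1 and 316.8 in Terf1FLOX libraries, with overlap. Its log2 fold change was 0.28 ± 0.57, beside −1.79 for Cct3. Atpsckmt (−0.40 ± 0.46), Mrpl18, a mitochondrial ribosomal protein (0.37 ± 0.41), Psph, an enzyme of serine synthesis (0.17 ± 0.69), and B130034C11Rik (0.23 ± 0.50) also overlapped between groups.

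**Figure D4:**
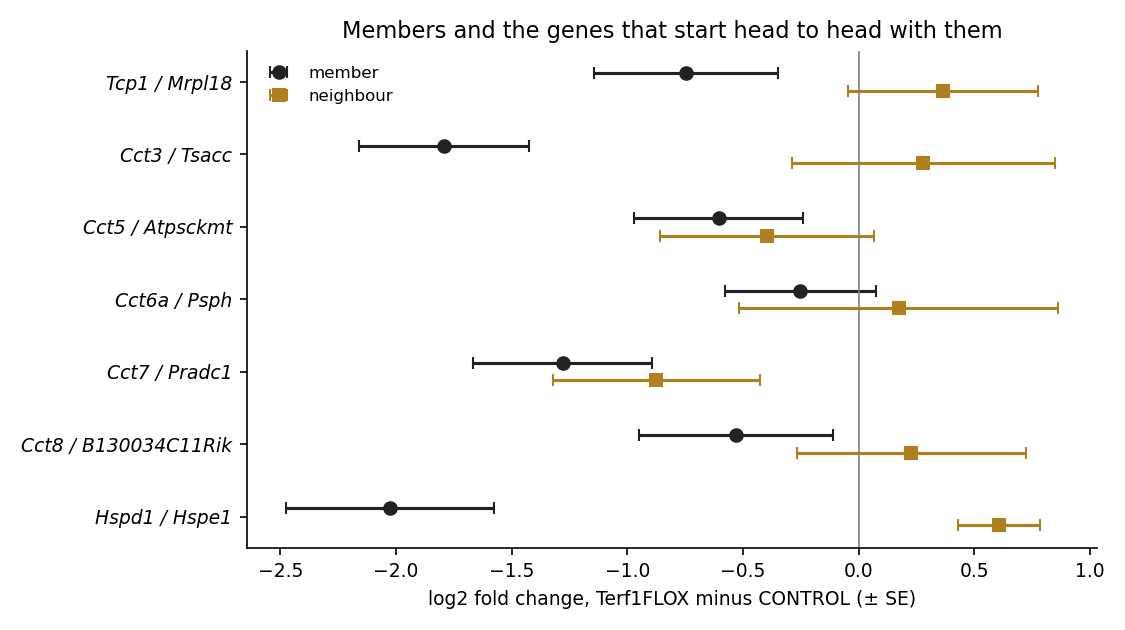
Log2 fold change, Terf1FLOX minus CONTROL, with its standard error, of 7 members (black circles) and of the gene that starts head to head with each (ochre squares). Hspd1 at −2.03 and Hspe1 at 0.61 lie furthest apart, and Cct7 at −1.28 and Pradc1 at −0.87 are both below 0.

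The genes whose pattern over the 6 libraries was most like the mean of the 8 CCT subunits were found among 9700 genes by the root mean square difference of centred log2 values. They were Vti1b (0.0930 log2 units), Hmgn1 (0.0941), Arpc5 (0.1001), Pradc1 (0.109) and Ywhae (0.114). The CCT subunits themselves differed from their mean by 0.158 (Cct2) to 0.543 (Cct3) on the same measure.

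Partners of CCT were next. Prefoldin, which hands unfolded actin and tubulin to CCT, had its 6 subunits on both sides: 2 were higher and 1 lower at an unadjusted limma p below 0.05, against 5.7% and 8.43% of all genes. Pfdn4 was at 1292, 677.7 and 1133 in CONTROL and 2569, 2024 and 2559 in Terf1FLOX libraries (1.25 ± 0.31), and Pfdn5 had a log2 fold change of 0.66 ± 0.20. Pfdn6 was at 1316, 1630 and 1940 in CONTROL and 610.2, 1037 and 806.6 in Terf1FLOX libraries (−1.01 ± 0.32), and Pfdn2 had −0.66 ± 0.31. All 4 were without overlap between groups, 2 higher and 2 lower, against 10.3% and 10.8% of all genes tested. The 4 listed CCT cofactors, the phosducin-like Pdcl and Pdcl3, Txndc9 and Pdcd5, all overlapped between groups, with log2 fold changes from −0.12 (Txndc9) to 0.75 (Pdcl). Cct6b, the testis form of the zeta subunit, was at 0 in 4 of the 6 libraries.

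Among the actins and tubulins, the chief clients of CCT, 4 of 12 tested genes were lower at an unadjusted limma p below 0.05 and 0 were higher, against 8.43% and 5.7% of all genes. These were the tubulins Tubb2b (−2.51 ± 0.74), Tubg1 (−3.60 ± 1.15), Tubb2a (−1.15 ± 0.40) and Tuba4a (−0.83 ± 0.31). The first 2 were at low counts in Terf1FLOX libraries, 57.7, 19.5 and 25.3 for Tubb2b and 4.35, 119.0 and 12.1 for Tubg1. The actins Actb (−0.12 ± 0.31) and Actg1 (0.01 ± 0.23) overlapped between groups. Of the 12 genes 9 had a log2 fold change below 0 and 3 above. Tuba4a was at 1381, 1734 and 1142 in CONTROL and 875.6, 908.3 and 613.3 in Terf1FLOX libraries. Without CONTROL replicate 2, or without CONTROL replicate 3, 2 of the 12 were lower. The list median was −0.47, beside −0.08 for all genes, and 0.16 after correction for GC content and length. Of 7 tubulin folding cofactors Tbca was higher (0.78 ± 0.22) and Arl2 lower (−1.29 ± 0.44) at that threshold, and Tbcc (−1.84 ± 0.95) and Tbcd (−2.37 ± 1.31) were not past it. Without CONTROL replicate 3, 0 of the 7 were lower at that threshold, and without Terf1FLOX replicate 2 there were 2. After correction for GC content and length 0 of the 7 were higher and 0 lower at that threshold. Of 13 tested WD40 and other clients, 2 were lower and 0 higher at that threshold, against 8.43% and 5.7% of all genes. These 2 were Gnb5 (−1.96 ± 0.47) and Ppp2r2a (−1.66 ± 0.45), while Gnb1 (−0.56 ± 0.39) and Mlst8 (−1.31 ± 1.03) did not pass. The list median was −0.40. After correction for GC content and length it was 0.10, with 2 lower at that threshold.

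Partners of the mitochondrial pair followed. In the mitochondrial Hsp70 system, which passes proteins to Hsp60, 2 of 7 genes were lower and 1 higher at an unadjusted limma p below 0.05, against 8.43% and 5.7% of all genes. After correction for GC content and length 1 was lower and 1 higher. Hspa9, the mitochondrial Hsp70 itself, was at 3828, 4067 and 5926 in CONTROL and 2645, 2629 and 2624 in Terf1FLOX libraries (−0.78 ± 0.23). Its J-domain partner Dnaja3 had a log2 fold change of −1.52 ± 0.45, Hscb, which serves iron-sulfur cluster assembly, 1.44 ± 0.43, and Trap1, a mitochondrial Hsp90, −0.80 ± 0.36. Of 11 mitochondrial proteases 3 were lower and 0 higher at that threshold, against the same shares of all genes. These were Pmpca, a subunit of the peptidase that removes import signals (−2.26 ± 0.54), Oma1 (−1.71 ± 0.53) and Clpp (−0.83 ± 0.27). Lonp1, the Lon protease, was at −1.05 ± 0.47. Without CONTROL replicate 3, and likewise after correction for GC content and length, 2 of the 11 were lower.

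Matrix enzymes are the kind of protein that Hsp60 folds. Of 10 tested genes, 7 were lower at an unadjusted limma p below 0.05 and 0 were higher, against 8.43% and 5.7% of all genes, with a list median of −1.36. After correction for GC content and length 5 of the 9 with transcript values were lower, with a median of −0.72. Idh2, isocitrate dehydrogenase, was at 11240, 10515 and 13335 in CONTROL and 4491, 4352 and 4748 in Terf1FLOX libraries (−1.36 ± 0.17, limma adjusted p = 0.0742). It was called with equal totals (limma adjusted p = 0.029) and with quantile normalization (limma adjusted p = 0.0381). It was also called with equal totals that leave out mitochondrially encoded genes, under the stricter filter (mean of at least 50) and by DESeq2. DESeq2 called 6 of the 10, all lower, against 3% of all genes called lower and 2.21% higher. In each of the other lists DESeq2 called 0 to 2 genes. After correction for GC content and length Idh2 was at −0.65 (limma adjusted p = 0.286). Mdh2, malate dehydrogenase (−1.37 ± 0.27), and Pcca of propionyl-CoA carboxylase (−1.44 ± 0.32) were also without overlap. The regulators of the heat shock and mitochondrial stress responses had 0 of 9 tested genes past that threshold. Of these, Hsf2 was at 1.01 ± 0.89, Ddit3, which codes for CHOP, at 0.43 ± 0.47, the kinase Eif2ak1 at −0.86 ± 0.51 and the coactivator Ppargc1a at 0.40 ± 0.19.

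GC content and length of transcripts moved with the comparison and are given beside it. In 5 equal bins of transcript GC content the median log2 fold change went from 0.37 in the lowest (25.6% to 43.1% GC) to −0.49 in the highest (55.0% to 78.3%). It was 0.07 in the second bin, with Cct4, Cct8 and Hspd1, and −0.12 in the third, with Tcp1, Cct2, Cct3, Cct5 and Cct6a. Cct7 and Hspe1 were in the fourth, at −0.34. In 5 equal bins of length it was 0.20 in the shortest (59 to 1510 bases) and −0.41 in the next (1510 to 2410 bases). In the third (2410 to 3393 bases), which held Tcp1, Cct4, Cct6a, Cct7 and Hspd1, it was −0.23. The CCT transcripts had 43.3% to 54.0% GC and 1853 to 2484 bases. Hspd1 had 46.8% GC and 2423 bases, and Hspe1 had 51.7% GC and 774 bases, the only member in the shortest bin. After correction of all genes for both, Cct3 was at −1.30 ± 0.34, Hspd1 at −1.65 ± 0.46 and Hspe1 at 0.61 ± 0.21, all 3 at a limma unadjusted p below 0.05 (0.00407, 0.00614 and 0.0159), against 11.3% of all genes, and 0 genes were called (0%). Cct7 was then at −0.52 (limma adjusted p = 0.675), the CCT median at −0.26, and Cct6a at 0.15 ± 0.36, above 0. The difference in the log2 ratio of Hspd1 to Hspe1 was then −2.26.

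**Figure D5:**
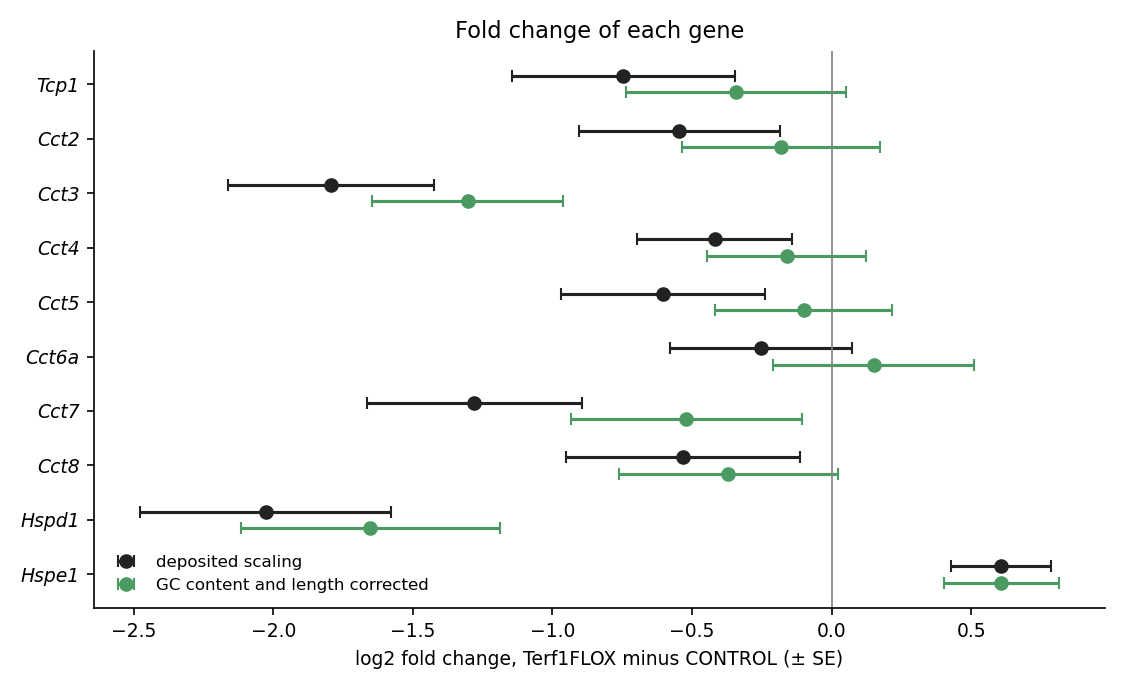
Log2 fold change, Terf1FLOX minus CONTROL, of each gene with its standard error from limma, with the deposited scaling (black) and after correction for transcript GC content and length (green). Cct3, Hspd1 and Hspe1 keep their direction, Cct7 goes from −1.28 to −0.52 and Cct6a from −0.25 to 0.15.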

How the data were processed

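The authors deposited 1 table for the whole series; its deposited values are normalized counts (signal: reads over a size factor); per the submitters' processing notes DESeq2 and build GRCm39 were used. Aligner, counter and annotation: not given in the sources used here. All values (100%) were whole multiples of 1 read within 0.01, so reads were recovered for edgeR (version 4.0.16) and DESeq2 (1.42.0). The main test was limma (3.58.1, R 4.3.3; empirical Bayes with trend) on log2(normalized count + 1) for 14822 genes with a mean of at least 10, two-sided, with Benjamini-Hochberg adjustment over all of them. The members, lists and tests were chosen with earlier results of these data known. From each list up to 4 genes with the smallest p were named. The 5 genes most like the CCT mean (mean of at least 50) and head-to-head neighbours were named too. Actb and Actg1 were added outside this rule. The values of 1 gene that this rule names are not reported here. Transcript GC content and length came from the longest protein-coding transcript of GENCODE M21 (GRCm38), known for 97.8% of tested genes; splines with 5 degrees of freedom were fitted in each library. Promoters came from RefSeq, GRCm38.p6; coordinates are on that build and not on the authors'. The functions were tested on simulated data. Alternatives were other pseudocounts, filters, scalings, array weights, a replicate block, the correction and leaving out each library. Intervals cover the spread between libraries only.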

Additional observations from a re-analysis of the deposited data

How the results depend on the processing

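With the deposited scaling limma called 0 genes in all and 0 of the 10 members. With a mean of at least 50 it called 132 genes and 1 member (Hspd1), and with DESeq2 772 and 3 (Cct3, Cct7 and Hspd1). With equal totals 45 genes were called, with equal totals without mitochondrially encoded genes 10 and with quantile normalization 8; in these 3 settings no member was called. The cause was not tested. Cct6a turned to 0.15 after GC content and length correction. Of 210 member values over 21 alternatives, 205 kept direction and side of the threshold, 4 newly passed it and 1 changed direction. The count of members at an unadjusted p below 0.05 was 3 to 5. Scaling moved the median of all genes from −0.08 to −0.24 (equal totals), 0.04 (equal upper quartiles) or 0.06 (quantile). Relative to it the CCT median was −0.50, −0.51, −0.49 and −0.60. Genes at an unadjusted p below 0.05 were 845 higher and 1250 lower, 563 and 1651 under equal totals, 1063 and 1027 under upper quartiles and 921 and 717 with the GC content and length correction. In leave-one-out fits the CCT median ran from −0.83 to −0.37 and the ratio difference from −2.90 to −2.15, with 0 calls in each. A correction by the median over transcripts, added after seeing the data, gave −0.55 and −2.56, with Cct6a at −0.55. Cct7 was then at −0.79 (limma unadjusted p = 0.0795) and Cct8 at −0.82, beside −0.52 and −0.37 with the longest transcript. Same-numbered libraries did not deviate together (r = −0.05, 0.00 and −0.01). With a replicate block 0 genes and 0 members were called, 1884 genes and 4 members had an unadjusted p below 0.05, and the CCT median was −0.58.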
